A study of Mus musculus with 12 samples.

Results

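The 55 genes described here carry out excision, mismatch and recombination repair of DNA or signal its damage to the cell cycle. They are 55 of the 18193 genes that could be named on the arrays, and each is represented by whichever of its probe sets was brightest on average across the 12 arrays. Transcript levels had been measured in 4 mouse acute myeloid leukaemia (AML) cell lines, with 3 arrays per line named A, B and C. B117H and B140H are resistant to cytarabine (Ara-C), a cytidine analogue that stalls DNA replication once it is built into DNA. B117P and B140P are the sensitive parental lines. All of them go back to leukaemias of BXH-2 mice, an inbred strain whose replicating retrovirus gives rise to myeloid leukaemia. The labels attach the same words on exposure to rising Ara-C and on passage without the drug to every sample. Each resistant line stands for 1 derivation of its lineage, and nothing in the labels says that its arrays came from separate cultures. The p-values therefore measure only the spread between these samples, which may be technical.

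A cell meets several kinds of DNA damage with separate sets of proteins. Base excision repair takes out single altered bases and mends nicks, nucleotide excision repair cuts out bulky adducts, and mismatch repair removes errors left by the polymerase. Homologous recombination and the Fanconi anaemia pathway deal with broken and cross-linked DNA, and the kinases Atm and Atr turn breaks and stalled forks into a checkpoint signal through Chek2 and Chek1. In dividing leukaemia cells Ara-C is known to stall forks and so to call on the Atr and Chek1 arm.

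All values are intensities on the linear scale or log2(intensity + 1), as stated. The array medians lay between 118 and 131 intensity units, and the highest was that of B140H B. Within a line, the correlation between arrays across probe sets was 0.988 to 0.997. Dck, the kinase that activates Ara-C, was lower in both resistant lines, with log2 changes of -7.96 (adjusted p = 7.73e-13) in B117H and -3.04 (adjusted p = 1.92e-08) in B140H. Ptprc, Spi1 and Cebpa, genes of blood and myeloid cells, had mean log2 levels of 10.03 to 13.73 in the 4 lines. The myeloid gene Mpo stood at 7.13 in B140H and 9.54 in B140P, against 14.04 in B117H and 14.62 in B117P. The B-cell genes Cd79b and Ebf1 stood at 9.66 to 11.43 in the B140 lines, against 5.44 to 6.74 in the B117 lines. Cd79a stood at 8.25 in B140P and 9.12 in B140H, against 6.22 in B117P and 6.14 in B117H. The B-cell genes Pax5 and Ms4a1 showed no such gap, at 7.42 to 7.70 and 6.30 to 6.43 across the 4 lines. The arrays read the pooled RNA of a culture, so fewer cells of a kind and less RNA per cell cannot be told apart. No detection calls came with the values. Of the members, 54 had a mean above 6.95, the median of all probe sets, and Ercc6 did not.

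Most members passed the test in neither resistant line. In B117H, limma called 9 of the 55 members against B117P at an adjusted p under 0.05. Of these, 6 rose and 3 fell, beside 9.41% of all genes called, 4.73% upward and 4.68% downward. In B140H, 7 members were called against B140P. Of these, 2 rose and 5 fell, beside 6.56% of all genes, 2.81% upward and 3.75% downward. Fanci was the member called in both lines, 15 were called in either and 40 in neither. Rad1 in B117H was the 1 member with a change of 2-fold or more. The median change of the 55 members was 0.14 in B117H and 0.04 in B140H, and over all genes it was -0.01 in B117H and 0.05 in B140H. Over genes at or above the median level of all genes it was 0.02 in B117H and 0.03 in B140H. The 3 arrays of B117H lay entirely above those of B117P for 16 members and entirely below for 3, beside 13.7% and 12.5% of all genes, or 26.2% in either direction. For B140H against B140P these counts were 11 and 8 members, beside 13.7% and 10% of all genes. For the median member the 95% interval of the fold change spanned a factor of 1.18 in each direction. The B117H count was 5 without B117P C and 4 without B117H C. For B140H, 2 calls were left on dropping B140H A, 4 on dropping B140H B, 3 on dropping B140P A, 2 on dropping B140P B and 3 on dropping B140P C. A fit to the B140H and B140P arrays alone called 1.

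**Figure D1:**
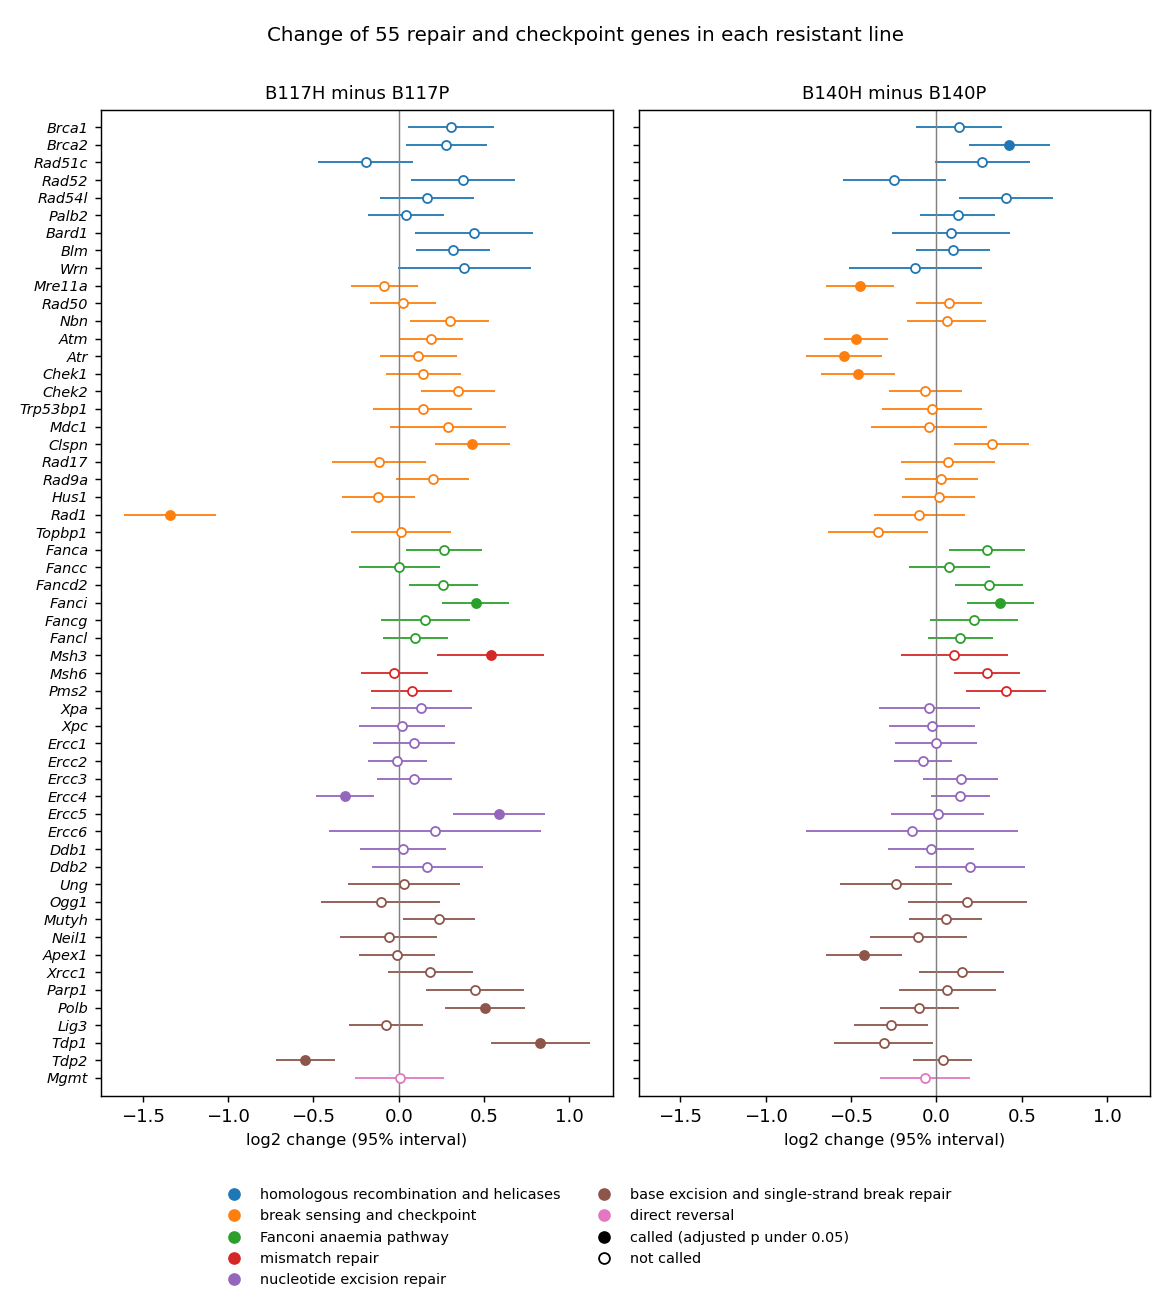
Log2 change of each of the 55 members in B117H minus B117P (left) and B140H minus B140P (right) with its 95% interval, 3 arrays per line. Rad1 at -1.34 and Tdp1 at 0.83 lie farthest from 0 in B117H, while Mre11a, Atm, Atr and Chek1 lie between -0.54 and -0.45 in B140H.

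Rad1 had the largest change of any member in the resistant lines. It encodes part of the Rad9-Rad1-Hus1 clamp, a ring that is loaded at damaged DNA and lets Atr switch on Chek1. Its intensity was 621, 649.9 and 628 in B117H A, B and C, against 1676, 1390.2 and 1771 in B117P. The arrays of B117H lay far below those of B117P, and Rad1 fell by 1.34 on the log2 scale (SE 0.12, adjusted p = 2.40e-05), to 0.395 of the level in B117P. In B140H it was 876, 795 and 1059, against 879, 999.7 and 1032 in B140P. Those arrays overlapped, and the change was -0.10 (adjusted p = 0.792). Rad1 was called in B117H under all 25 settings tried, with changes of -1.46 to -1.26. Its neighbours on chromosome 15 were read among genes at or above the median level of all genes. Of the 20 nearest, 19 had changes below 0 in B117H, with a median of -1.13 over the 20. The other parts of the clamp did not pass the test in B117H. Rad9a changed by 0.20 (adjusted p = 0.377) there and Hus1 by -0.12 (adjusted p = 0.746). Rad17, which loads the clamp, changed by -0.12 (adjusted p = 0.856).

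Clspn, the adaptor that holds Chek1 to Atr at stalled forks, rose in B117H. Its intensity was 2373, 2549 and 2856 in B117H, against 1932, 2063 and 1767 in B117P, with no overlap, a change of 0.43 (SE 0.10, adjusted p = 0.0195). In B140H it was 1933, 2231 and 1986, against 1565, 1655 and 1681 in B140P, again apart but short of the threshold at 0.32 (adjusted p = 0.105). The B117H call ended without B117H B (adjusted p = 0.0582), B117H C (0.101) or B117P C (0.0965). Its other probe set, with a mean log2 level of 7.56, changed by 0.03 (adjusted p = 0.996) in B117H, and the mean of both by 0.23 (adjusted p = 0.627).

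In B140H, 4 checkpoint members were lower. Mre11a, the nuclease that opens broken ends, the kinases Atm and Atr and the Atr target kinase Chek1 fell, and of the 15 members for break sensing and checkpoint none rose by the test. By limma 4 of these 15 were called, beside 6.56% of all genes, and 6 had an unadjusted p under 0.05, beside 18.6% of all genes. Atr read 1173, 1101 and 1031 in B140H, against 1605, 1689 and 1515 in B140P. Every B140H array lay below every B140P array, and Atr changed by -0.54 (SE 0.10, adjusted p = 0.00818). Atm read 937, 855 and 879 in B140H, against 1192, 1322 and 1188 in B140P. These arrays were apart too, with a change of -0.47 (SE 0.09, adjusted p = 0.0061). Chek1 read 1492, 1492 and 1675 in B140H, against 2113, 2245 and 2044 in B140P, a change of -0.46 (SE 0.10, adjusted p = 0.0195). Mre11a read 771, 796 and 874 in B140H, against 1054, 1133 and 1137 in B140P, a change of -0.45 (SE 0.09, adjusted p = 0.0124). For both genes the arrays of the lines did not overlap. All 4 genes lie on chromosome 9, where 134 of 1002 measured genes were called downward in B140H.

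In B117H none of these 4 passed the test, and their adjusted p-values ran from 0.295 to 0.855. Atm changed by 0.19, Atr by 0.12, Chek1 by 0.14 and Mre11a by -0.08. The other kinase of the checkpoint, Chek2, which takes its signal from Atm, changed by -0.06 (adjusted p = 0.842) in B140H. In B117H Chek2 changed by 0.35 (adjusted p = 0.0593). That change passed under some other settings, among them array weights (adjusted p = 0.0243) and brighter probe sets only (0.0298). Rad50 and Nbn, which form a complex with Mre11a, changed by 0.07 and 0.06 in B140H (adjusted p = 0.784 and 0.867). Topbp1, the activator of Atr, read 3907, 4395 and 4817 in B140H, against 4813, 6096 and 5742 in B140P. Its arrays overlapped, and the change was -0.34 (adjusted p = 0.241), which passed with the replicate letter as a block (adjusted p = 0.0256).

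The Atm and Atr calls held without any single array. Atm missed the threshold in a fit to the B140H and B140P arrays alone (adjusted p = 0.0538). The Chek1 call ended without B140H A, B140H B, B140P A or B140P B (adjusted p = 0.0564 to 0.096), and that of Mre11a without B140H A (adjusted p = 0.0516), B140P B (0.0616) or B140P C (0.0603). A further Atm probe set changed by -0.62 (adjusted p = 0.00946) in B140H and a further Atr probe set by -0.60 (adjusted p = 0.00817). The remaining Atr probe set changed by -1.41 (adjusted p = 0.0863). For Chek1 the next brightest probe set changed by -0.41 (adjusted p = 0.127), and the 3 dimmer ones by -0.17 to -0.01. The second Mre11a probe set changed by -0.05 (adjusted p = 0.923). Averaged over a gene's probe sets, the changes were -0.22 (adjusted p = 0.164) for Chek1 and -0.25 (adjusted p = 0.0902) for Mre11a.

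**Figure D2:**
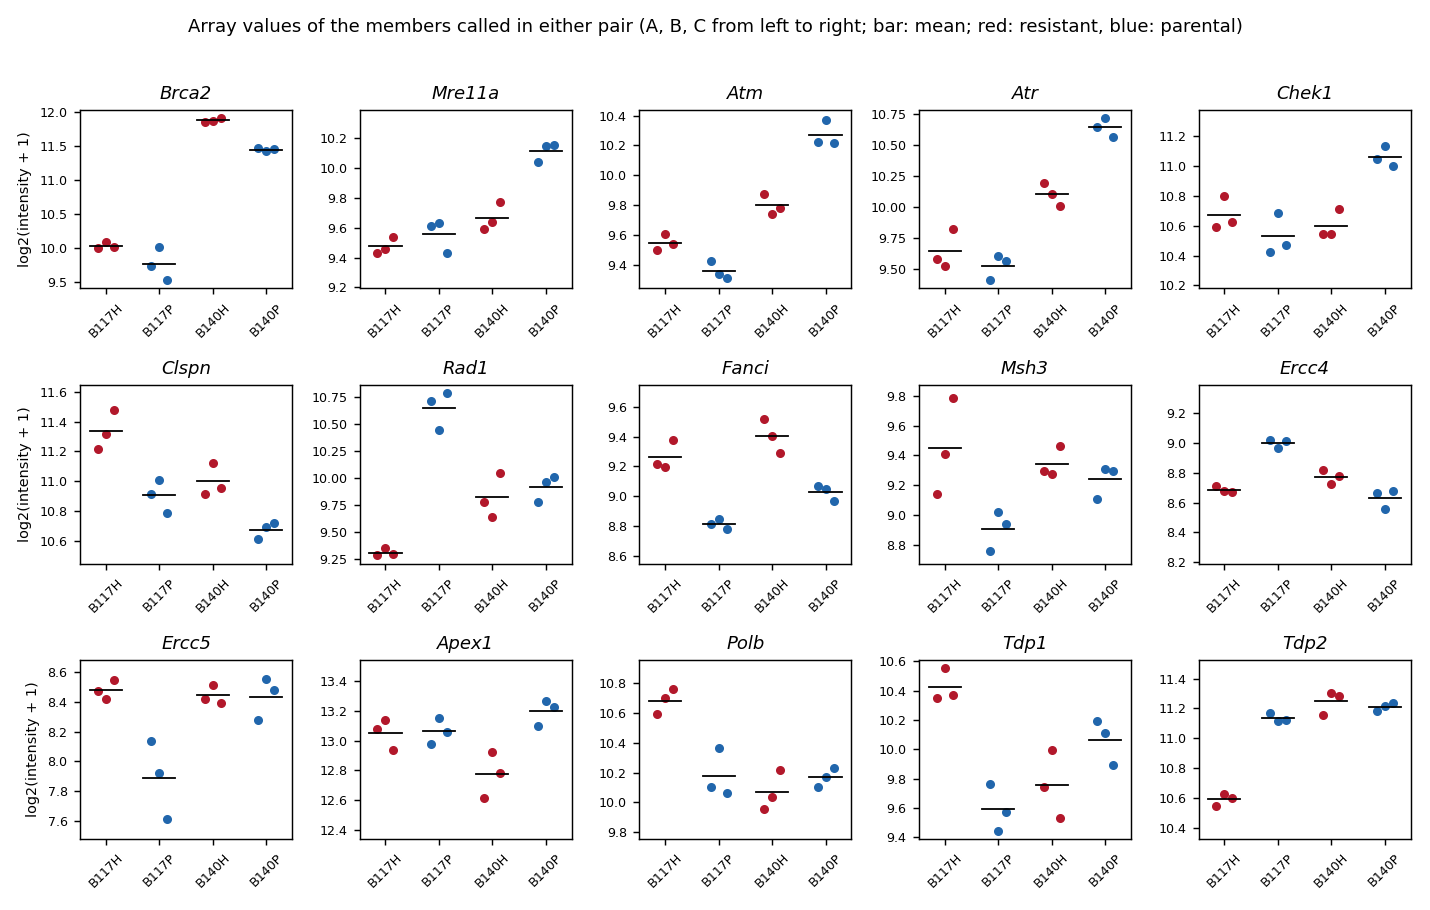
Log2(intensity + 1) on each array for the 15 members called in either pair, with points for arrays A, B and C from left to right, bars for line means, resistant lines in red and parental lines in blue. Rad1 and Tdp2 are lowest in B117H among the 4 lines, and Atm, Atr, Chek1 and Mre11a are lower in B140H than in B140P.

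Both enzymes that free topoisomerases stuck on DNA changed in B117H, in opposite directions. Tdp1, which removes topoisomerase I and other blocking groups from the ends of single-strand breaks, rose, and Tdp2, which does the same for topoisomerase II, fell. Tdp1 read 1304, 1501 and 1323 in B117H, against 869, 696 and 761 in B117P. The arrays were far apart, with a change of 0.83 (SE 0.13, adjusted p = 0.00166), or 1.78-fold. Tdp2 read 1494, 1579 and 1549 in B117H, against 2304, 2216 and 2228 in B117P. It too was separated on all arrays, and it changed by -0.55 (SE 0.08, adjusted p = 0.000841). In B140H Tdp1 read 854, 1021 and 738, against 1167, 1103 and 951 in B140P, where the arrays overlapped and the change was -0.31 (adjusted p = 0.297). Tdp2 read 2283, 2527 and 2496 in B140H, against 2328, 2377 and 2407 in B140P. Those arrays overlapped, with a change of 0.04 (adjusted p = 0.889). Neither call in B117H was lost without a single array.

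Among the other 9 genes for base excision and single-strand break repair, Polb rose in B117H and Apex1 fell in B140H. Polb, the polymerase that fills the gap after a base is cut out, read 1542, 1662 and 1732 in B117H, against 1099, 1321 and 1068 in B117P, with no overlap. Its change was 0.51 (SE 0.11, adjusted p = 0.0107), and its next brightest probe set changed by 0.75 (adjusted p = 0.00487). Its call ended without B117H C (adjusted p = 0.0538) or B117P C (0.0573), and on averaging its probe sets (adjusted p = 0.0591). In B140H Polb read 990.2, 1048 and 1190.3, against 1098, 1152 and 1202 in B140P, where the arrays overlapped and the change was -0.10 (adjusted p = 0.753).

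Apex1 encodes the main nuclease for sites that have lost their base. It read 6281, 7753 and 7032 in B140H, against 8782, 9839 and 9595 in B140P. All B140H arrays lay below the B140P arrays, and the change was -0.43 (SE 0.10, adjusted p = 0.0329). All 3 of its probe sets fell, the others by 0.49 (adjusted p = 0.0158) and 0.52 (0.0101) on the log2 scale. In B117H it read 8639, 9028 and 7823, against 8048, 9092 and 8534 in B117P. These arrays overlapped, with a change of -0.01 (adjusted p = 0.994). The B140H call ended without B117H A, B117P C, B140H A, B140H C, B140P A, B140P B or B140P C (adjusted p = 0.0509 to 0.142).

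Parp1, the sensor of nicks, changed by 0.45 (adjusted p = 0.065) in B117H and by 0.06 (adjusted p = 0.884) in B140H. The B117H change passed under some other settings, among them array weights (adjusted p = 0.0323) and repeated quantile normalization (0.0404). Xrcc1, the scaffold that gathers the repair enzymes, changed by 0.19 and 0.15 in B117H and B140H, and Lig3, the ligase that seals the nick, by -0.08 and -0.27. A second Lig3 probe set, however, changed by -0.41 (adjusted p = 0.01) in B117H. Among the glycosylases that cut out the base, Ung, Ogg1, Mutyh and Neil1 changed by -0.11 to 0.24 in B117H and by -0.23 to 0.18 in B140H. None of these 4 was called in either line. Mgmt, which repairs alkylated guanine by direct reversal, changed by 0.00 in B117H and -0.07 in B140H.

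In nucleotide excision repair, each of the nucleases that cut on either side of the lesion changed in B117H. Ercc5, which cuts on one side, rose, and Ercc4, which cuts on the other with its partner Ercc1, fell. Ercc5 read 354, 342 and 372 in B117H, against 281, 241 and 195 in B117P. The lines were apart, and Ercc5 changed by 0.59 (SE 0.13, adjusted p = 0.011). Ercc4 read 418, 408 and 406 in B117H, against 519, 499.8 and 515 in B117P. It differed little between the arrays of a line, and it changed by -0.32 (SE 0.08, adjusted p = 0.0281). The Ercc5 call ended without B117H C (adjusted p = 0.0514), and the mean of its probe sets changed by 0.32 (adjusted p = 0.0644). That of Ercc4 ended without B117H A, B117H B, B117H C, B117P A, B117P B or B117P C (adjusted p = 0.0595 to 0.1). The mean of the 4 Ercc4 probe sets changed by -0.20 (adjusted p = 0.148), and the other 3 by -0.24 to -0.03, none called.

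Neither nuclease passed the test in B140H. Ercc5 read 341, 365 and 336 in B140H, against 309.5, 374 and 355 in B140P, a change of 0.01 (adjusted p = 0.989). Ercc4 read 451, 421 and 438 in B140H, against 404, 376 and 408 in B140P. Its arrays were just apart, and its change was 0.14 (adjusted p = 0.47). The other 8 genes of the pathway were not called in either resistant line. They are Xpc and Ddb2 with its partner Ddb1, which find the lesion, Xpa, which verifies it, the helicases Ercc2 and Ercc3, which open the DNA, Ercc1, and Ercc6, which acts on stalled transcription. By limma 0 of the 10 were called in B140H, beside 6.56% of all genes. None had an unadjusted p under 0.05, beside 18.6% of all genes. In B117H the 8 changed by -0.01 to 0.21.

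The mismatch repair gene Msh3, whose product recognises small loops with its partner in the MutS complex, rose in B117H. It read 564, 679 and 884 in B117H, against 432, 519 and 491 in B117P, a change of 0.54 (SE 0.14, adjusted p = 0.0404). The lines did not overlap, but the 3 arrays of B117H were spread widely. In B140H it read 628, 618 and 704, against 552, 634 and 629 in B140P, where the arrays overlapped and the change was 0.10 (adjusted p = 0.817). The B117H call ended without B117H B, B117H C, B117P A, B117P B, B117P C, B140H A, B140P B or B140P C (adjusted p = 0.0517 to 0.163). The mean of its 4 probe sets changed by 0.20 (adjusted p = 0.136), and its other 3 by -0.09 to 0.29, none called. With arrays centred on their medians the adjusted p of Msh3 was 0.0623.

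Msh6, which recognises single mismatches, and Pms2, which nicks the strand to be removed, were not called in either line. Pms2 read 2091, 2097 and 2004 in B140H, against 1533, 1479 and 1659 in B140P. The arrays were apart, and its change of 0.41 (adjusted p = 0.0531) passed with the replicate letter as a block (adjusted p = 0.0348). Msh6 changed by 0.30 (adjusted p = 0.098) in B140H, where its arrays were apart too. In B117H the changes were -0.03 for Msh6 and 0.08 for Pms2.

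Of the Fanconi anaemia genes, Fanci, which forms with Fancd2 the clamp that is ubiquitinated at cross-links, rose in both resistant lines. The 6 members of this pathway had changes above 0 in both lines, beside 48.5% of all genes in B117H and 62.7% in B140H. Among genes at or above the median level of all genes the shares were 54.5% and 54.8%. Further genes of the pathway outside the 55 did not all go this way. Among the 6 members, the changes in B117H ran from 0.00 for Fancc, before rounding just above 0, to 0.45 for Fanci. In B140H they ran from 0.08 to 0.37 for the same genes. Fanci was the one called in each line, beside 9.41% of all genes called in B117H and 6.56% in B140H. In each line 3 of the 6 had an unadjusted p under 0.05 by limma, beside 20% of all genes in B117H and 18.6% in B140H. Fanci read 593, 586 and 663 in B117H, against 448, 458 and 438 in B117P, a change of 0.45 (SE 0.09, adjusted p = 0.0073). In B140H it read 730.4, 676 and 626, against 537, 528 and 500.5 in B140P, a change of 0.37 (SE 0.09, adjusted p = 0.0317). The arrays of each resistant line lay wholly above those of its parental line. The B140H call ended without B140H A, B140H B, B140P A, B140P B or B140P C (adjusted p = 0.0603 to 0.135), while the B117H call held without any single array. A second Fanci probe set, with a mean log2 level of 5.03, changed by 0.19 (adjusted p = 0.495) in B117H and 0.11 (adjusted p = 0.729) in B140H, where the mean of both changed by 0.24 (adjusted p = 0.122).

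Brca2, which loads the recombinase onto resected ends, rose in B140H. It read 3699, 3733 and 3874 in B140H, against 2836, 2762 and 2809 in B140P, a change of 0.43 (SE 0.11, adjusted p = 0.0447). The arrays of a line lay close together and the lines were apart. In B117H it read 1030.1, 1089.9 and 1040.1, against 855, 1036 and 738 in B117P, with overlap and a change of 0.28 (adjusted p = 0.204). The call in B140H ended without any one of 10 arrays, namely B117H A, B117H B, B117H C, B117P A, B140H A, B140H B, B140H C, B140P A, B140P B and B140P C (adjusted p = 0.0537 to 0.15), and with arrays centred on their medians (0.103).

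The 8 other genes for homologous recombination and its helicases were not called in either line. In B117H none of the 9 was called by limma and 5 had an unadjusted p under 0.05, beside 3633 of the 18193 genes, with a median change of 0.31. Brca1 and its partner Bard1, which prepare breaks for recombination, changed by 0.31 and 0.44 there. The helicases Blm and Wrn changed by 0.32 and 0.38, and Rad52, which anneals strands, by 0.38. Their adjusted p-values ran from 0.0878 to 0.323. Rad51c, a recombinase paralogue, changed by -0.19 in B117H, and Palb2, which joins Brca1 to Brca2, by 0.04. In B140H the 9 genes had a median change of 0.12. Rad54l, the motor that helps strand exchange, read 1447, 1215 and 1061 in B140H, against 991, 858 and 938 in B140P. Its arrays were apart, and its change of 0.41 (adjusted p = 0.107) passed with the replicate letter as a block (adjusted p = 0.0225).

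The remaining break-response genes passed the test in neither line. Trp53bp1, which steers breaks away from resection, changed by 0.14 in B117H and -0.02 in B140H, with adjusted p-values of 0.815 and 0.962. Mdc1, which binds marked chromatin beside the break, changed by 0.29 and -0.05 (0.448 and 0.936). Nbn changed by 0.30 (adjusted p = 0.15) in B117H, where its 3 arrays read 1101, 1271 and 1036, against 1030.5, 830.0 and 912 in B117P, with no overlap.

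The promoters of the members, called or not, were read for E2F motifs, since E2F factors are known to drive many S-phase and repair genes. The motifs searched were TTTCCCGC, TTTGGCGC, TTTCGCGC and TTTGCCGC on both strands, in the 250 bases before the gene start. RefSeq sequences of build GRCm38.p6 were at hand for 45 of the 55 members, in 50 windows. Of these windows 14% held a motif, those of Bard1, Fancg, Chek2, Brca2, Topbp1, Msh3 and Mdc1. The share was 1.86% of 32851 windows in the whole table and 2.64% of 18109 windows of measured genes. Of the 7 genes, Msh3 rose in B117H and Brca2 rose in B140H. The others were not called in either line by the fit used throughout. Under some alternative settings Bard1 and Chek2 passed in B117H, and Topbp1 in B140H. Fanci and Clspn had no match, which says only that these letters are not in their windows. The windows of Fanci, the member called in both lines, and of Brca2 and Msh3, the called members with a match, are shown 5′ to 3′ along the gene's strand with the motif in capitals. The motif starts 168 bases before the gene start in Brca2, as GCGGGAAA on the gene's strand, and 202 bases before it in Msh3. There TTTGGCGC overlaps a second match, GCGCGAAA, which starts at 198 bases, and the capitals cover both.
Fanci, chr7:79392088-79392337, plus strand: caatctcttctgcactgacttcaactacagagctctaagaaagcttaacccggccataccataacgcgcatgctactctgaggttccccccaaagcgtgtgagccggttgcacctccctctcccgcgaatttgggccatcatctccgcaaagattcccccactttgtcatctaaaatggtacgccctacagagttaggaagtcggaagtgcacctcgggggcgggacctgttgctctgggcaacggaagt
Brca2, chr5:150522371-150522620, plus strand: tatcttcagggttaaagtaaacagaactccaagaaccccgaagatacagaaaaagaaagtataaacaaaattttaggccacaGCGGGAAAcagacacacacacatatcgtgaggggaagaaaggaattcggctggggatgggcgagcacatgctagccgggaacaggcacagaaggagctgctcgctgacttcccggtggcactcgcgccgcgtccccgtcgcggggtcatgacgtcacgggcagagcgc
Msh3, chr13:92355004-92355253, minus strand: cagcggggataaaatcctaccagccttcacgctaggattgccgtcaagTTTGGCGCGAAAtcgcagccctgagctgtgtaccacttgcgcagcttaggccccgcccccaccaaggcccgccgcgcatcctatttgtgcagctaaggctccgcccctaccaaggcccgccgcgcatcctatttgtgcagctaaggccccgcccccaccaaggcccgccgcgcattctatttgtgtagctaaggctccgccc

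The average of the 2 changes was tested next. A large change in 1 lineage alone can move it, so a call does not by itself show a shared shift. The average called 8 members, beside 7.86% of all genes, 3.69% upward and 4.17% downward. Fanci, Clspn, Brca2, Fancd2 and Fanca were higher in the resistant lines on average, and Rad1, Mre11a and Tdp2 were lower. Fanci had a mean change of 0.41 (SE 0.06, adjusted p = 0.00177), Clspn of 0.38 (adjusted p = 0.00659) and Brca2 of 0.35 (adjusted p = 0.0172). Fancd2, the partner of Fanci, read 592, 645 and 657 in B117H, against 564, 522 and 493 in B117P, and 719, 743 and 767 in B140H, against 559, 651 and 593 in B140P. Its arrays were apart in both lineages, and its mean change was 0.29 (adjusted p = 0.0219). Fanca, part of the complex that ubiquitinates both, read 844, 948 and 953 in B117H, against 739.7, 824 and 719 in B117P, and 765, 852 and 845 in B140H, against 596, 683 and 726 in B140P. These were apart as well, with a mean change of 0.28 (adjusted p = 0.0398). Rad1, Mre11a and Tdp2 had mean changes of -0.72, -0.27 and -0.25. For Rad1 the changes were -1.34 in B117H and -0.10 in B140H, and for Tdp2 -0.55 and 0.04. Both were called in B117H alone and differed between the lineages, so their averages do not show a shared fall. Mre11a changed by -0.08 in B117H and -0.45 in B140H and was called in B140H alone, so its average does not show one either.

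On the average, the Fancd2 call ended without B117H B, B117H C, B117P B, B117P C, B140P A or B140P C (adjusted p = 0.0511 to 0.0639). The mean of the 4 Fancd2 probe sets changed by 0.15 (adjusted p = 0.135), and the other 3 by 0.05 to 0.20, none called. The calls of Clspn and Mre11a also ended on averaging a gene's probe sets. Clspn then had a mean change of 0.26 (adjusted p = 0.301) and Mre11a of -0.16 (adjusted p = 0.11). The Fanca call ended without B117H B, B117H C, B117P A, B117P C, B140H B, B140H C, B140P A or B140P B (adjusted p = 0.0646 to 0.105). The Mre11a call ended without B117H A, B117H B, B117P A, B117P B, B140H A, B140P B or B140P C (adjusted p = 0.0586 to 0.0845), and that of Tdp2 without B117H A (adjusted p = 0.0532), B140P B (0.0528) or B140P C (0.0541). The count of members called was 5 without B117H B, B140P B or B140P C.

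The change differed between the lineages for 8 members, tested as the change in B140H minus the change in B117H, beside 10.4% of all genes, 4.91% upward and 5.51% downward. Rad1, Tdp2 and Ercc4 had the higher change in B140H. Tdp1, Atm, Atr, Polb and Chek1 had the lower change there. The difference was 1.24 (SE 0.17, adjusted p = 0.000796) for Rad1 and -1.14 (SE 0.19, adjusted p = 0.00227) for Tdp1, and it was called under all 24 settings for both. Atm differed by -0.66 (adjusted p = 0.00444) and Atr by -0.66 (adjusted p = 0.0143). For Mre11a the difference of -0.36 missed the threshold (adjusted p = 0.128), so its fall was not shown to be particular to B140H. The same holds for the rises of Msh3 (-0.44, adjusted p = 0.29), Clspn (-0.11, 0.795) and Brca2 (0.15, 0.722). For Apex1 and Ercc5 the call depended on the setting. Apex1 differed by -0.41 (adjusted p = 0.124), and it passed on averaging its probe sets (adjusted p = 0.0198), with array weights (0.034) and with the replicate letter as a block (0.0459). Ercc5 differed by -0.58 (adjusted p = 0.0698), and it passed with array weights (adjusted p = 0.018), among brighter probe sets (0.0414), without B117P A (0.0207) and with the block (0.0499). The count was 5 without B117H B, B117P C or B140P B.

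Several of the called members lie among genes that moved with them. For each member the 10 nearest measured genes on either side were taken, at or above the median level of all genes. Gene order came from the GRCm38.p6 RefSeq table. On chromosome 15, the 20 neighbours of Rad1 had a median change of -1.13 in B117H, and 18 of them were called downward. The 20 neighbours of Tdp2 on chromosome 13 had a median of -0.71, with 17 called downward. Around Ercc4 on chromosome 16 the median was -0.37, with 9 called downward, and around Tdp1 on chromosome 12 it was 0.41, with 7 called upward. Around Ercc5 on chromosome 1 the median was 0.37, and 20 of the 20 neighbours had changes above 0.

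The genes beside the other risers changed less than the member itself. In B117H the neighbour medians were -0.02 for Msh3 on chromosome 13, 0.01 for Polb on chromosome 8, 0.03 for Clspn on chromosome 4 and -0.06 for Fanci on chromosome 7. In B140H they were 0.09 for Fanci and 0.14 for the 13 neighbours of Brca2 near the end of chromosome 5, of which 10 had changes above 0.

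Of the 5 members that fell in B140H, Mre11a, Chek1, Atm and Atr lie on chromosome 9. Their neighbours had median changes of -0.42, -0.44, -0.43 and -0.39 in B140H, with 19, 20, 19 and 18 of 20 below 0. The 6 members on that chromosome, with Topbp1 and Neil1, all had changes below 0, of -0.54 to -0.11. On chromosome 9 as a whole 9 genes were called upward in B140H, against the 134 called downward. Apex1 lies on chromosome 14, where 105 of 640 were called downward and 3 upward, and all 20 of its neighbours had changes below 0 (median -0.27). Of the 49 members away from chromosome 9, 2 were called upward and 1 downward in B140H, beside 2.81% and 3.75% of all genes. Whether a member and the genes beside it changed from a shared source was not tested.

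**Figure D3:**
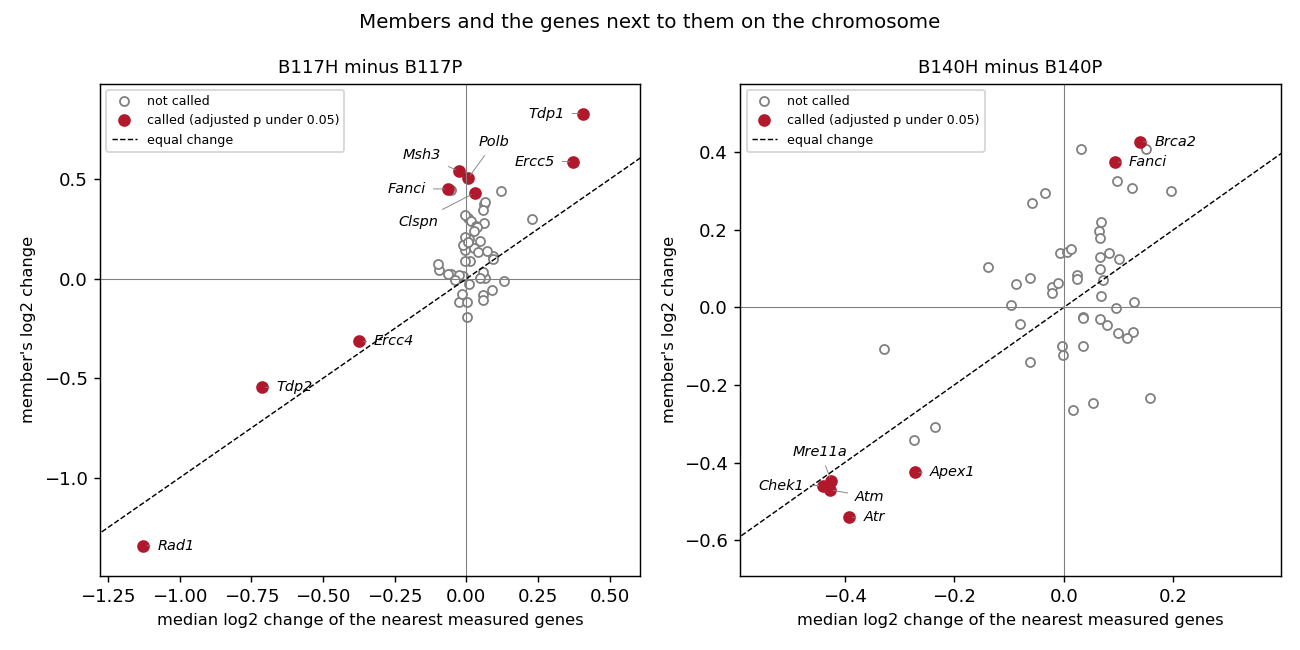
Log2 change of each member (vertical axis) against the median log2 change of its neighbours on the chromosome (horizontal axis). The panels show B117H minus B117P (left) and B140H minus B140P (right), on axes of different range. Neighbours are the nearest measured genes at or above the median level of all genes. Rad1, Tdp2 and Ercc4 on the left and Atm, Atr, Chek1 and Mre11a on the right lie near the dashed line of equal change, while Msh3, Polb, Fanci and Clspn lie above neighbours near 0.

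The parental lines differed in many of these genes. Between B140P and B117P, 24 members were called, beside 23.8% of all genes. Of these, 15 were higher in B140P and 9 lower, beside 12% and 11.8%. The 3 arrays of B140P lay wholly above those of B117P for 22 members and wholly below for 12, beside 19.9% and 18.7% of all genes, or 38.6% in either direction. The parental arrays also enter both resistant comparisons, so the values are given side by side only.

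Brca2 differed most. It read 2836, 2762 and 2809 in B140P, against 855, 1036 and 738 in B117P, a difference of 1.69 (SE 0.11, adjusted p = 1.39e-07), or 3.23-fold. Pms2 read 1533, 1479 and 1659 in B140P, against 668, 561 and 539.7 in B117P, 2.65-fold apart (adjusted p = 7.36e-07). Its other probe sets differed by 0.69 (adjusted p = 0.0296) and 0.91 (adjusted p = 0.000132). Msh6 read 2386, 2536 and 2352 in B140P, against 1275, 1388 and 1180.2 in B117P, a difference of 0.92 (adjusted p = 7.02e-06). In all 3 genes the lines stood far apart.

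The checkpoint kinases were higher in B140P too. Atr differed by 1.12 (adjusted p = 4.06e-06), Atm by 0.91 (adjusted p = 4.69e-06), Chek2 by 0.90 (adjusted p = 2.17e-05) and Chek1 by 0.53 (adjusted p = 0.00192). Atm read 686, 646 and 634 in B117P and Atr 679, 777 and 759, so the B140H arrays, though below B140P, lay above those of B117P for both. Mre11a differed by 0.55 (adjusted p = 0.000629). Both Mre11a and Chek1 were called under all 25 settings, but the size depended on the setting. It ran from 0.25 to 0.62 for Mre11a and from 0.25 to 0.61 for Chek1. Ercc5 differed by 0.54 (adjusted p = 0.00701) and Xpc by 0.51 (adjusted p = 0.00703).

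Lower in B140P were Rad1, at -0.73 (adjusted p = 0.000813), Trp53bp1, at -0.67 (adjusted p = 0.00298), Rad54l, at -0.58 (adjusted p = 0.0051), and Nbn, at -0.56 (adjusted p = 0.0021). Trp53bp1 read 1478, 1381 and 1397 in B140P, against 2029, 2465 and 2282 in B117P. Its next probe set differed by -0.48 (adjusted p = 0.00182). Hus1 differed by -0.48 (adjusted p = 0.00334) and Ercc4 by -0.37 (adjusted p = 0.00445). The calls of these genes held without any single array.

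For the remaining 8 members the parental call depended on single arrays. Higher in B140P were Mdc1 (0.58), Ddb2 (0.54), Topbp1 (0.51), Tdp1 (0.47) and Rad52 (0.47). Lower were Xrcc1 (-0.46), Rad51c (-0.41) and Mutyh (-0.38). The Mdc1 call ended without B140P B, B140P C, B117P A or B117P C (adjusted p = 0.0644 to 0.0828), that of Ddb2 without B140P A, B140P B, B140P C, B117P B or B117P C (adjusted p = 0.0554 to 0.0964), that of Topbp1 without B140P B (adjusted p = 0.0856), B140P C (0.0672) or B117P A (0.0743) and that of Tdp1 without B140P A, B140P B, B117P B or B117P C (adjusted p = 0.0753 to 0.11). Rad52 was not called without B140P A, B140P C, B117P B or B117P C (adjusted p = 0.0831 to 0.134), nor Xrcc1 without B140P C (adjusted p = 0.069) or B117P A (0.054), nor Mutyh without B140P A (adjusted p = 0.0809) or B117P C (0.0627). Rad51c was not called without B140H C, B140P B, B140P C, B117H B, B117H C, B117P A, B117P B or B117P C (adjusted p = 0.0508 to 0.166). With the replicate letter as a block Wrn, Msh3 and Xpa were called as well (adjusted p = 0.0264, 0.0452 and 0.0469).

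Here too some members differed together with the genes beside them. The neighbours of Rad1 had a median difference of -1.11, those of Brca2 1.16, those of Pms2 0.97 and the 14 of Msh6 on chromosome 17 0.74. The neighbours of Chek2 and Trp53bp1 stood at -0.01 and 0.07. Of the 6 members on chromosome 9, 5 were called higher in B140P, and 255 of its 1002 measured genes were called in that direction and 55 in the other.

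**Figure D4:**
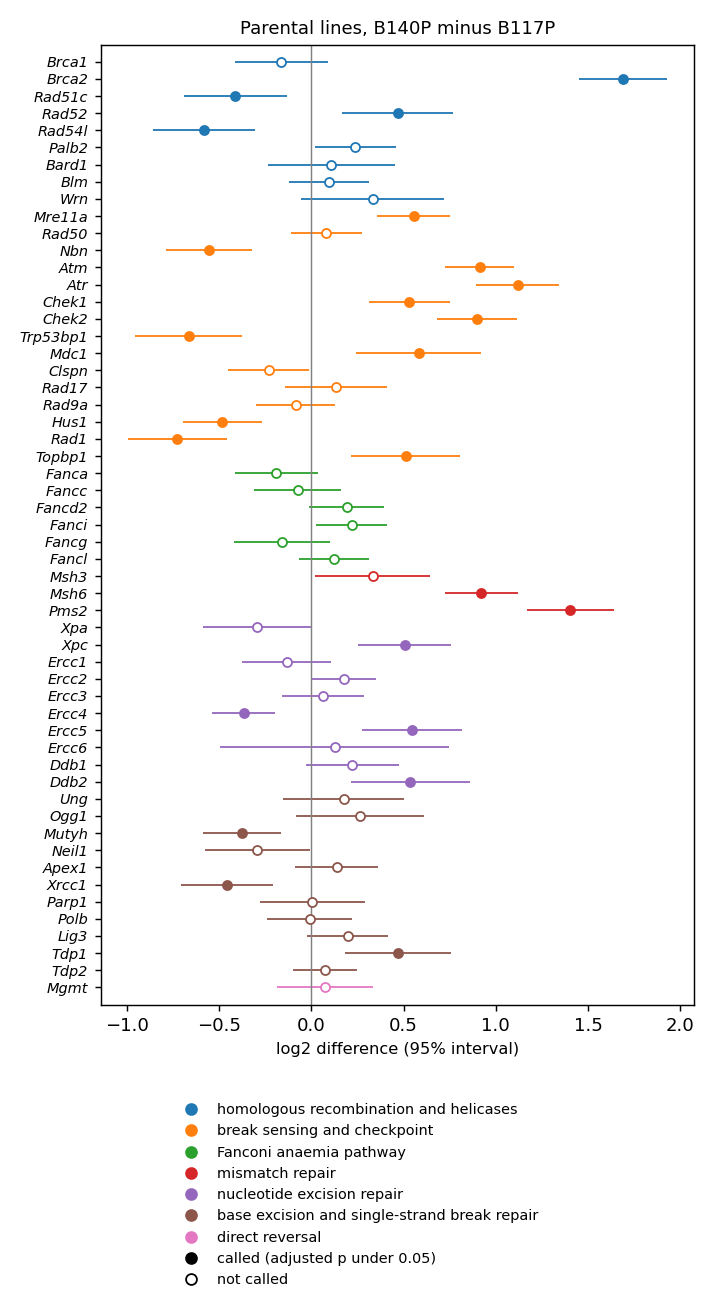
Log2 difference of each of the 55 members between the parental lines, B140P minus B117P, with its 95% interval, 3 arrays per line. Brca2 at 1.69, Pms2 at 1.40 and Atr at 1.12 lie farthest to the right, and Rad1 at -0.73 farthest to the left.

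Of the 55 members, 23 were called in none of the 5 contrasts. They include the helicase genes Ercc2 and Ercc3 of the repair helicase complex, Rad50, Rad17, Rad9a, Palb2, Blm, Brca1, Ung, Ogg1, Lig3, Parp1, Ddb1, Ercc1 and Mgmt. A miss at the threshold does not show that their levels were equal, as the intervals reach a factor of 1.18 for the median member.

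Other genes of these pathways were read from a list of 73 symbols, of which 62 were measured. In B117H, 8 rose and 4 fell, beside 4.73% and 4.68% of all genes, with a median change of 0.08. Mnat1, part of the kinase that accompanies the repair helicases, changed by 0.94 (adjusted p = 3.58e-05), and Gen1, a resolvase, by 0.76 (adjusted p = 0.00325). Both lie on chromosome 12, where 143 of 622 measured genes were called upward in B117H and 4 downward. Rad54b, a relative of Rad54l, changed by 0.72 (adjusted p = 0.0242) and the helicase gene Recql by -0.69 (adjusted p = 0.0126). In B140H, 1 rose and 1 fell, beside 2.81% and 3.75% of all genes, with a median change of 0.05. Timeless, which steadies the fork, changed by 0.57 (adjusted p = 0.0182) and Alkbh2, which reverses alkylation, by -0.83 (adjusted p = 0.000404).

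Markers of dividing cells were read beside them, since many repair genes are expressed in S phase. Of 31 measured proliferation genes, the test called 4 upward and 2 downward in B117H, beside 4.73% and 4.68% of all genes. In B140H limma called 3, all upward, beside 2.81% of all genes called upward. There 12 had an unadjusted p under 0.05, beside 18.6% of all genes. Their median change was 0.13 in B117H and 0.20 in B140H. Their summed intensity was 140383 to 147816 in B117H, against 131303 to 134191 in B117P, and 149831 to 157731 in B140H, against 133344 to 137800 in B140P. The part of proliferation in the rises of Fanci, Clspn, Brca2 and the other members was not tested. The cyclin gene Ccne1 changed by -0.96 (adjusted p = 0.000144) in B117H and 0.73 (adjusted p = 0.00194) in B140H, the thymidylate synthase gene Tyms by 0.67 (adjusted p = 0.00361) in B117H and the kinesin gene Cenpe by 0.56 (adjusted p = 0.00376) in B140H.

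The counts of the lists that follow stand beside 9.41% of all genes called in B117H and 6.56% in B140H. At an unadjusted p under 0.05 by limma the shares of all genes were 20% and 18.6%. Of 19 p53 target genes 2 rose and 1 fell in B117H. Zmat3 changed by 1.06 (adjusted p = 0.00984) and Ak1 by 0.54 (adjusted p = 0.00356). In B140H limma called 0 of the 19, and 6 had an unadjusted p under 0.05. Of 14 myeloid markers 6 fell in B117H, among them Elane (-1.63, adjusted p = 0.0013) and Lyz2 (-1.13, adjusted p = 0.000229), and 2 fell in B140H, Mpo (-2.41, adjusted p = 0.000284) and Cd33 (-0.97, adjusted p = 0.0281). Their summed intensity was 61522 to 64184 in B117H, against 76832 to 90794 in B117P, and 29166 to 30398 in B140H, against 33309 to 35832 in B140P. Of 11 B and T cell markers, 1, Cd79b, was called in B117H (-0.75, adjusted p = 0.0385), and limma called 0 in B140H, where 3 had an unadjusted p under 0.05. Their sums were 1035 to 1164 in B117H, against 1175 to 1249 in B117P, and 4946 to 5776 in B140H, against 3561 to 4183 in B140P. Limma called 0 of 7 erythroid and megakaryocyte markers in either line, with 0 at an unadjusted p under 0.05 in B117H and 1 in B140H. Of 8 stromal and endothelial markers Pdgfrb rose in B117H (1.07, adjusted p = 0.00374) and 0 were called in B140H, where 1 had an unadjusted p under 0.05. The part of these shifts in the members' changes was not tested.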

How the data were processed

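Total RNA of 12 cell-line samples was hybridised to single-colour arrays. The authors deposited 1 intensity per probe set and array, and the submitters' processing notes name RMA, whose version is not given in the sources used here. The scale was read from the values, 7.65 to 36675, as linear. After leaving out 64 controls, log2(value + 1) of 45037 probe sets was fitted with limma 3.58.1 in R 4.3.3 (lmFit, contrasts.fit, eBayes with 4.65 prior and 8 residual degrees of freedom, two-sided), with 1 coefficient per line over all 12 arrays. P-values were adjusted by Benjamini-Hochberg across all probe sets, and an adjusted p under 0.05 was called. Platform annotation gave 34945 probe sets 1 symbol, 932 several and 9160 none, and no gene was named from several. RefSeq names changed 0 symbols. The scripts were tested on simulated data. The number of arrays limits precision, and the pseudocount of 1 understates folds of dim probe sets.

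Members, lists, the rule that names genes (all members; the 4 called genes with the largest change of the other repair list and 2 of any other list per pair) and the tests were chosen with earlier results of these data known. The neighbour windows, too, were set with the values in view. Dck and the markers given only by their levels stand outside the naming rule. Arrays of the same letter were compared by the correlation of their deviations from line means. For A, B and C it was 0.587, 0.360 and 0.560 between B140P and B140H. It was 0.499, 0.131 and 0.414 between B117P and B140P, and 0.555, 0.028 and 0.392 between B117P and B117H. Across the other pairs of lines it ran from -0.043 to 0.567. The fit has no term for the letter. The alternatives were that block, only the pair's arrays, repeated quantile normalization, median centring, brighter probe sets, no pseudocount, an intensity trend with robust priors, probe-set means, array weights, an adjusted p under 0.01 and leaving out arrays.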

Additional observations from a re-analysis of the deposited data

Results flagged for a closer look

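Each of these members changed differently in the 2 lineages by the test of the difference itself, the change in B140H minus the change in B117H. Rad1 differed by 1.24 (adjusted p = 0.000796), with changes of -0.10 in B140H and -1.34 in B117H. Tdp2 differed by 0.58 (adjusted p = 0.00627), with 0.04 in B140H and -0.55 in B117H. Ercc4 differed by 0.46 (adjusted p = 0.0238), with 0.14 in B140H and -0.32 in B117H. The Ercc4 difference was not called without B117H B, B117H C, B117P C, B140H A or B140P B (adjusted p = 0.054 to 0.0763). Tdp1 differed by -1.14 (adjusted p = 0.00227), with -0.31 in B140H and 0.83 in B117H. Polb differed by -0.61 (adjusted p = 0.027), with -0.10 in B140H and 0.51 in B117H. The Polb difference was not called without B117H B, B117H C, B117P A, B117P C, B140H A, B140P B or B140P C (adjusted p = 0.06 to 0.0753).

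Atm differed by -0.66 (adjusted p = 0.00444), with -0.47 in B140H and 0.19 in B117H. Atr differed by -0.66 (adjusted p = 0.0143), with -0.54 in B140H and 0.12 in B117H. Chek1 differed by -0.60 (adjusted p = 0.0202), with -0.46 in B140H and 0.14 in B117H. The Chek1 difference was not called without B117H B (adjusted p = 0.0588), B117P C (0.0548) or B140P B (0.0608). The genes beside Rad1, Tdp2, Ercc4, Tdp1, Atm, Atr and Chek1 differed between the lineages in the same direction, with neighbour medians of 1.05, 0.75, 0.44, -0.65, -0.48, -0.48 and -0.27. Around Polb the median was -0.01. Whether the members and their neighbours share a source was not tested.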

How the results depend on the processing

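No value of a called member changed sign under any alternative. Of the counts of members called, B117H moved from 9 to 14 with the replicate block, 14 with array weights, 4 at an adjusted p under 0.01 and 2 to 10 when arrays were left out. B140H moved from 7 to 10 with the replicate block, 10 with brighter probe sets only and 1 with only the pair's arrays. It was 2 at the stricter threshold and 0 to 7 with arrays left out, the 0 standing for each setting without all arrays of a letter. In those settings limma left 13, 11 and 12 members with an unadjusted p under 0.05. In the main fit it was 16 members, beside 18.6% of all genes. The share of all genes was not counted for the settings without a letter. The difference moved from 8 to 13 with the replicate block, 4 at the stricter threshold and 2 to 8 with arrays left out. The average moved from 8 to 12 with the replicate block, 12 with array weights, 3 at the stricter threshold and 1 to 9 with arrays left out. The parental count of 24 was 27 with the replicate block and ran from 11 to 24 with arrays left out. The block added Rad52, Bard1, Wrn, Chek2 and Parp1 in B117H, and every member called before stayed called. There the letters A and C paired the arrays of B117P and B117H, while B did not (correlation 0.028). Array weights added Bard1, Nbn, Chek2, Fancd2 and Parp1 in B117H. With the block no call was lost in B140H or between the parental lines. The average and the difference had no fit with only the pair's arrays. Rad1 and Tdp1 in B117H were called under all 25 settings, and there Tdp2 under 24 and Fanci under 22. In B140H Atr was called under 22 and Atm under 21. Of the 15 members called in either pair, Msh3 in B117H and Brca2 in B140H lost the call under the most settings, 16 and 17 of 25.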
